A study of Mus with 15 samples.

Results

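The genes examined here mark the inner cell layer of the aorta, the endothelium, and its activation: Cdh5 and Kdr as identity genes, Nos3 and Edn1 as producers of vasoactive signals, Klf2 as a flow-responsive regulator, and Vcam1 and Icam1 as adhesion molecules for leukocytes. A fixed list of 8 Ensembl transcripts, 1 per gene, defined the set. Of these, 7 transcripts were described in all 15 mice, and the remaining gene was not analysed here. A gene name below stands for its 1 listed transcript, and other transcripts of the same gene were not examined. Every mouse had values for 108027 Ensembl transcripts, these 7 among them. Comparisons with AngII + QDG mice used those shared transcripts, and AngII vs. Control used the 126719 transcripts listed for Control and AngII mice. RNA came from the abdominal aorta of young adult male wild-type C57BL/6 mice, 5 per group, after 14 days of treatment. Control mice were infused with saline and AngII mice with angiotensin II at 500 ng/kg/min, both by osmotic pump and both given water by gavage. AngII + QDG mice received the same infusion and Qingda granule, a herbal formula, by gavage at 1.145 g/kg/day. All mice thus carried a pump, and no group received QDG without AngII. In the sample descriptions the AngII dose runs from 500 to 504 ng/kg/min across the AngII mice, while their treatment field gives 500 for each.

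Endothelial cells line the lumen, hold together through VE-cadherin, and set the tone of the smooth muscle beneath them by releasing nitric oxide, which relaxes it, and endothelin, which contracts it. When activated by cytokines or by angiotensin II, the endothelium can display adhesion molecules that let leukocytes attach, while steady laminar flow keeps KLF2 and nitric oxide synthase expressed. In the aorta this layer is a single sheet of cells, so its transcripts are a small share of the RNA of the whole wall. Vcam1 and Icam1 can also be expressed by smooth muscle, fibroblasts and leukocytes, Edn1 and Klf2 by several other cell types. In RNA of whole tissue, fewer endothelial cells and less RNA per cell cannot be told apart. Lists of markers for smooth muscle, fat, blood and other cells were not applied, because the tables used here do not pair transcripts with gene symbols.

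Levels are given as FPKM, in which fragments are divided by transcript length and by sequencing yield, so that different genes can be set side by side. Summed FPKM ranged from 454587 to 547311 per mouse, and absolute depth is unknown. AngII + QDG mice had been quantified on another list of transcripts than Control and AngII mice, so that in every comparison with AngII + QDG mice the treatment and the list cannot be told apart. Differences were tested with limma on log2(FPKM + 1) over all transcripts that reached 1 FPKM in 5 or more of the 10 mice of a comparison. Fold changes refer to this scale, where those of weakly expressed transcripts come out too small, and p-values were adjusted with the Benjamini-Hochberg method over all transcripts tested. A transcript was called a differentially expressed transcript (DET) at a fold change of at least 2 and an unadjusted p below 0.05, the thresholds of the study.

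None of the 7 endothelial transcripts passed the test in any comparison. In AngII vs. Control 0 were DETs, against 1.50% of the 27327 transcripts tested. Between AngII + QDG and AngII mice 0 of 7 were DETs, against 3.53% of 21081 transcripts, and between AngII + QDG and Control mice 0 of 7, against 3.64% of 21250. With so few members a count of 0 is near these backgrounds. An adjusted p below 0.05 was reached by 0 of 7 in each comparison, against 0.00732%, 1.73% and 1.81% of all transcripts. At an unadjusted limma p below 0.05 there were 0, 0 and 1 of 7, against 4.75%, 7.86% and 8.98%, and the 1 was Edn1 in AngII + QDG vs. Control. A 2-sided exact permutation test on FPKM had p below 0.05 for 0, 0 and 2 of 7, against 4.53%, 7.41% and 8.70% of all transcripts, and the 2 were Cdh5 and Edn1. The groups failed to overlap for 0 of 7 in each comparison, against 0.732%, 2.86% and 3.24%. The median log2 fold change of the 7 was 0.05 in AngII vs. Control (0.02 over all transcripts), -0.13 in AngII + QDG vs. AngII (0.00 over all) and -0.01 in AngII + QDG vs. Control (0.02 over all). Of the 21 fold changes, 18 had a 95% interval that stayed inside a 2-fold change in either direction, and 3 had one that reached beyond it, those of Vcam1 and Nos3 in AngII vs. Control and of Vcam1 in AngII + QDG vs. Control. For each fold change the 10 mice were also left out 1 at a time, and the range of these values, with the mice that set its ends, is given for every gene below.

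**Figure D1:**
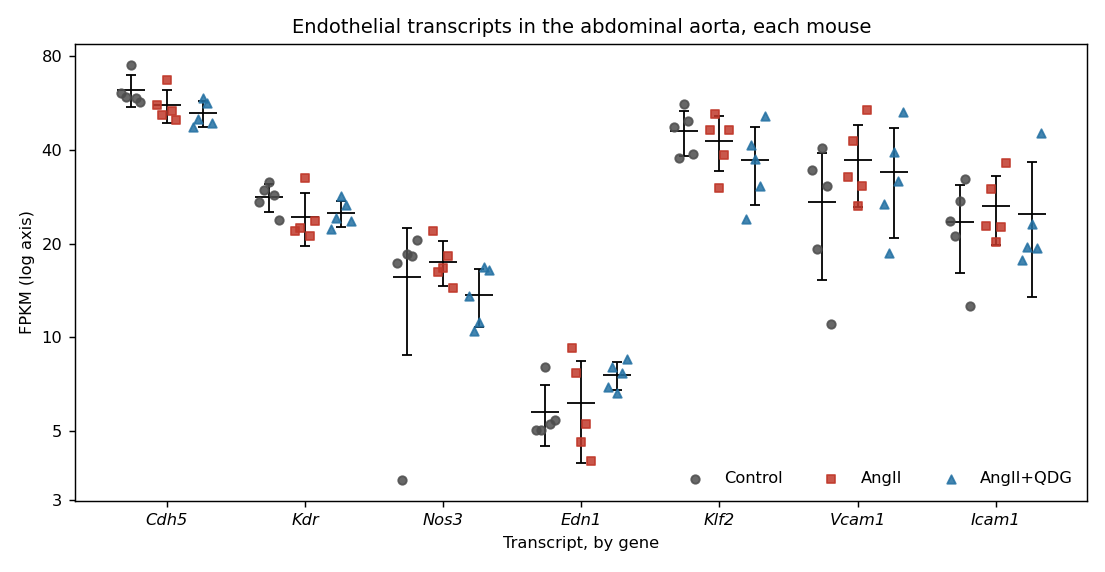
FPKM (log axis) of the 7 endothelial transcripts in each of the 15 mice, with 1 point per mouse, a bar at the group mean and whiskers of 1 SD. Cdh5 and Kdr stay within a narrow band in all groups, Vcam1 runs from 11.04 to 53.6, and 1 Control mouse is at 3.47 for Nos3.

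Averaged over the 15 mice, Cdh5 had the highest level at 56.8 ± 7.33 FPKM (SD, n = 15), followed by Klf2 at 41.9 ± 9.12, Vcam1 at 32.8 ± 11.9, Kdr at 25.9 ± 3.66, Icam1 at 24.9 ± 8.23, Nos3 at 15.6 ± 4.57 and Edn1 at 6.48 ± 1.63. Cdh5 lay above 95.5% of 23914 Ensembl transcripts and Edn1 above 66.8%. Within a mouse, Cdh5 exceeded Klf2 in 13 of 15 mice, Icam1 exceeded Nos3 in 14, and Nos3 exceeded Edn1 in 14. The neighbours in between did not separate beyond the spread of the mice. Klf2 was above Vcam1 in 10 of 15 mice, Vcam1 above Kdr in 11, and Kdr above Icam1 in 9.

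Cdh5 (ENSMUST00000034339, gene at chr8:104101613-104144504 on GRCm38) encodes VE-cadherin, the adherens junction protein of endothelial cells. Its FPKM was 60.9, 59.1, 75.2, 59.0 and 56.9 in the Control mice. In the AngII mice it was 55.9, 51.8, 67.3, 53.5 and 50.0. The AngII + QDG mice had 47.4, 50.4, 58.7, 56.5 and 48.9. The groups overlapped, although 4 of 5 AngII mice and 4 of 5 AngII + QDG mice lay below every Control mouse. Group means were 62.2 ± 7.37 (SD, n = 5), 55.7 ± 6.82 (SD, n = 5) and 52.4 ± 4.96 (SD, n = 5). The log2 fold change was -0.16 in AngII vs. Control (95% interval -0.43 to 0.11, limma adjusted p = 0.995), -0.08 in AngII + QDG vs. AngII (-0.34 to 0.17, adjusted p = 0.989) and -0.24 in AngII + QDG vs. Control (-0.49 to 0.01, adjusted p = 0.580). For the last of these, the exact permutation test on FPKM gave an unadjusted p = 0.0159. With single mice left out, the fold change ran from -0.23 (without mouse 3986) to -0.089 (without mouse 4086) in AngII vs. Control. In AngII + QDG vs. AngII it ran from -0.13 (without 3983) to -0.015 (without 3986), and in AngII + QDG vs. Control from -0.28 (without 3983) to -0.17 (without 4086). The interval of this last comparison did not include 0 in the joint fit of the 3 groups (-0.48 to -0.0039, limma adjusted p = 0.534) or with each mouse scaled by its 75th percentile (-0.51 to -0.04, limma adjusted p = 0.415).

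Kdr (ENSMUST00000113516, gene at chr5:75932827-75979072) encodes VEGF receptor 2, the main signalling receptor for vascular endothelial growth factor. It ranged from 23.8 to 31.5 FPKM in Control mice, from 21.2 to 32.6 in AngII mice and from 22.3 to 28.4 in AngII + QDG mice. As with Cdh5, 4 of 5 AngII mice were below every Control mouse, and AngII mouse 3986 was the highest of all. Means were 28.2 ± 2.93 (SD, n = 5), 24.4 ± 4.67 (SD, n = 5) and 25.0 ± 2.44 (SD, n = 5), and none of the 3 differences passed the test. The log2 fold change was -0.21 in AngII vs. Control (95% interval -0.52 to 0.10), 0.05 in AngII + QDG vs. AngII (-0.26 to 0.35) and -0.16 in AngII + QDG vs. Control (-0.41 to 0.08), with limma adjusted p-values of 0.995, 0.998 and 0.817. Leaving out mouse 3986 took the first of these to -0.32 (-0.57 to -0.07, limma adjusted p = 0.662), an interval that no longer included 0, and the other end of its range was -0.17 (without 3987). The second ran from 0.0036 (without 3983) to 0.15 (without 3986) and the third from -0.22 (without 3994) to -0.12 (without 4086).

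Cdh5 and Kdr were among the steadier transcripts of their level. In the fit of AngII vs. Control, Cdh5 had a log2 SD within groups of 0.16. The 500 transcripts of nearest mean level had a median SD of 0.29, and 15% of them varied less than Cdh5. For Kdr the SD was 0.20 against a median of 0.31, and 23.8% varied less.

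Nos3 (ENSMUST00000030834, gene at chr5:24364816-24384474) encodes the endothelial nitric oxide synthase. Its FPKM was 17.3, 3.47, 18.5, 18.3 and 20.5 in Control mice. AngII mice had 21.97, 16.2, 16.7, 18.2 and 14.4. In AngII + QDG mice it was 13.5, 10.5, 11.2, 16.8 and 16.5. Control mouse 4000, at 3.47, stood apart from all others, and its levels of Cdh5 (59.1) and Kdr (29.7) lay within those of the other Control mice. Other transcripts of Nos3 were not examined in mouse 4000, so its low value is that of 1 transcript. With this mouse the Control mean was 15.6 ± 6.89 (SD, n = 5), and without it 18.7 ± 1.33 (SD, n = 4). AngII mice had a mean of 17.5 ± 2.86 (SD, n = 5) and AngII + QDG mice one of 13.7 ± 2.91 (SD, n = 5).

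The comparisons of Nos3 with Control mice rested on that mouse. In AngII vs. Control the log2 fold change was 0.33 (95% interval -0.56 to 1.22, limma adjusted p = 0.995) with all mice and -0.10 without mouse 4000. In AngII + QDG vs. Control it was -0.01 (-0.91 to 0.89, limma adjusted p = 0.998). Without that mouse it was -0.44 (-0.81 to -0.07, limma adjusted p = 0.455). Mouse 4000 does not enter AngII + QDG vs. AngII. There the log2 fold change was -0.34 (-0.71 to 0.03, limma adjusted p = 0.696), with 3 of 5 AngII + QDG mice below every AngII mouse, and the exact permutation test gave p = 0.0794. With single mice left out it ran from -0.42 (without 3984) to -0.26 (without 3982), and 3 of the 10 intervals did not include 0. The highest values against Control, 0.47 for AngII and 0.13 for AngII + QDG mice, were those without Control mouse 3994.

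Edn1 (ENSMUST00000021796, gene at chr13:42301476-42307990) encodes the precursor of endothelin-1, a potent vasoconstrictor peptide. Its FPKM was 5.02, 5.03, 8.003, 5.27 and 5.40 in Control mice. The AngII mice had 9.25, 7.68, 4.60, 5.27 and 4.01, and thus held both the highest and the lowest value of the series. In AngII + QDG mice it was 6.90, 7.99, 6.60, 7.67 and 8.501, all above 4 of the 5 Control mice. Means were 5.74 ± 1.27 (SD, n = 5) in Control, 6.16 ± 2.22 (SD, n = 5) in AngII and 7.53 ± 0.781 (SD, n = 5) in AngII + QDG mice.

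Between AngII and Control mice Edn1 differed by less than the spread, with a log2 fold change of 0.05 (95% interval -0.45 to 0.55, limma adjusted p = 0.998). Against AngII mice the AngII + QDG mice gave 0.30 (-0.15 to 0.76, adjusted p = 0.888). Against Control mice they gave 0.35 (0.02 to 0.68), the only interval of the 21 that did not include 0. Its unadjusted limma p was 0.0383 and the exact permutation p 0.0397, and it did not pass adjustment (limma adjusted p = 0.499). This interval included 0 in 7 of the 10 fits that left out a mouse, and in the joint fit of the 3 groups (-0.06 to 0.77). The value ran from 0.31 (without 3985) to 0.46 (without 4086, limma adjusted p = 0.206). In AngII vs. Control it ran from -0.092 (without 3988) to 0.17 (without 4048), and in AngII + QDG vs. AngII from 0.19 (without 4048) to 0.44 (without 3988).

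**Figure D2:**
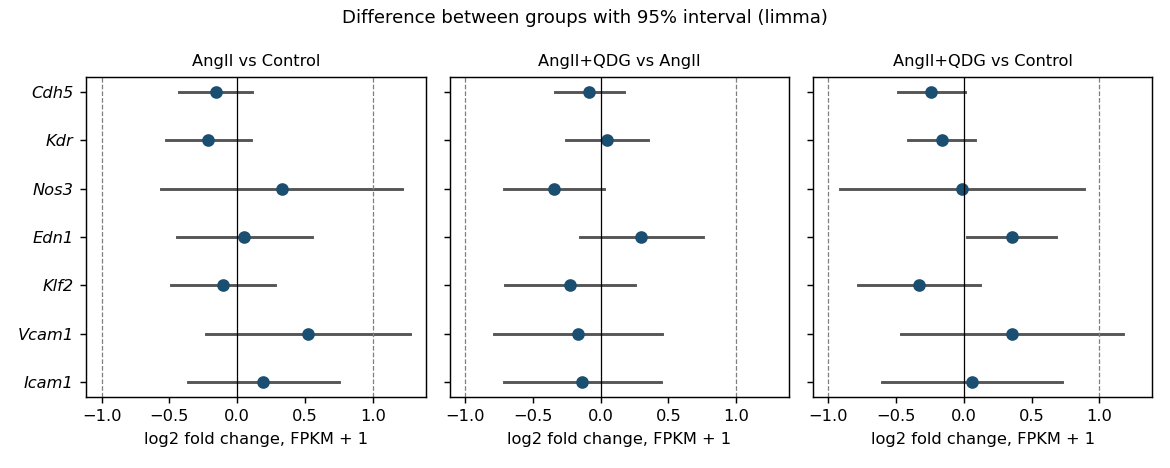
log2 fold change of FPKM + 1 for the 7 transcripts in each of the 3 comparisons (points) with the 95% interval from limma (lines) and dashed lines at a 2-fold change. All intervals but that of Edn1 in AngII + QDG vs. Control include 0, and those of Nos3 and Vcam1 are the widest in AngII vs. Control.

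Klf2 (ENSMUST00000067912, gene at chr8:72319062-72321654) encodes a transcription factor induced by laminar shear stress that promotes Nos3 and restrains adhesion molecules in cultured endothelium. It ranged from 37.6 to 56.1 FPKM in Control mice, from 30.3 to 52.2 in AngII mice and from 24.0 to 51.5 in AngII + QDG mice. The groups overlapped broadly, with 1 of 5 AngII and 3 of 5 AngII + QDG mice below every Control mouse. Means were 45.9 ± 7.66 (SD, n = 5), 42.8 ± 8.51 (SD, n = 5) and 37.0 ± 10.5 (SD, n = 5). The log2 fold change was -0.11 in AngII vs. Control (95% interval -0.49 to 0.28), -0.23 in AngII + QDG vs. AngII (-0.70 to 0.25) and -0.33 in AngII + QDG vs. Control (-0.78 to 0.12), with limma adjusted p-values of 0.995, 0.966 and 0.775. With single mice left out the first ran from -0.18 (without 3989) to 0.0089 (without 3986). The second ran from -0.35 (without 3985) to -0.086 (without 3981) and the third from -0.46 (without 3985) to -0.19 (without 3981).

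Vcam1 (ENSMUST00000029574, gene at chr3:116110020-116129688) encodes a receptor for integrins of monocytes and lymphocytes. Its FPKM was 34.4, 19.2, 40.7, 30.7 and 11.04 in Control mice. In AngII mice it was 32.7, 42.7, 26.5, 30.6 and 53.6. AngII + QDG mice had 26.9, 18.7, 39.5, 31.7 and 53.0. Single mice of a group thus differed more than the group means, which were 27.2 ± 12.0 (SD, n = 5), 37.2 ± 10.9 (SD, n = 5) and 34.0 ± 13.1 (SD, n = 5). Over the 15 mice the highest value was 4.86 times the lowest, against 1.59 times for Cdh5.

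In AngII vs. Control the log2 fold change of Vcam1 was 0.52 (95% interval -0.23 to 1.28, limma adjusted p = 0.995) and 2 of 5 AngII mice were above every Control mouse. This value rested in part on Control mouse 3994, without which it was 0.25, and it reached 0.70 without Control mouse 4086. A 2-fold rise and a slight fall both lie inside the interval with all mice. In AngII + QDG vs. AngII it was -0.17 (-0.79 to 0.45, adjusted p = 0.996), and in AngII + QDG vs. Control 0.36 (-0.46 to 1.18, adjusted p = 0.915). The former ran from -0.34 (without 3985) to 0.021 (without 3982) and the latter from 0.082 (without 3994) to 0.54 (without 3982). Its log2 SD within groups was 0.59 in the fit of AngII vs. Control, where transcripts of nearest mean level had a median SD of 0.31, and 77.8% of them varied less.

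Icam1 (ENSMUST00000086399, gene at chr9:21015940-21028814) encodes a ligand of leukocyte beta-2 integrins. It ranged from 12.6 to 32.3 FPKM in Control mice, from 20.2 to 36.3 in AngII mice and from 17.6 to 45.4 in AngII + QDG mice. The groups overlapped, and the lowest and highest mice were Control mouse 3994 and AngII + QDG mouse 3985. Means were 23.4 ± 7.37 (SD, n = 5), 26.4 ± 6.62 (SD, n = 5) and 25.0 ± 11.6 (SD, n = 5). The log2 fold change was 0.19 in AngII vs. Control (95% interval -0.36 to 0.75), -0.13 in AngII + QDG vs. AngII (-0.72 to 0.45) and 0.06 in AngII + QDG vs. Control (-0.60 to 0.72), with limma adjusted p-values of 0.995, 0.996 and 0.986. The first ran from -0.0014 (without 3994) to 0.32 (without 3971) with single mice left out. The second ran from -0.37 (without 3985) to -0.015 (without 4048) and the third from -0.17 (without 3985) to 0.19 (without 3971).

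To set the other genes against 1 endothelial transcript, each was divided by Cdh5 of the same mouse, as a difference of log2(FPKM + 1). Several of these genes can also be expressed by other cells, so the ratio is not a level per endothelial cell. The ratio to Cdh5 does not depend on how a mouse was scaled, apart from the effect of the pseudocount. The 6 ratios were compared in the 3 comparisons with 18 exact permutation tests, and 0, 0 and 1 of 6 had p below 0.05, against 5.89%, 6.91% and 18.5% of all transcripts in AngII vs. Control, AngII + QDG vs. AngII and AngII + QDG vs. Control. With 6 ratios, 1 is near the background of the last comparison and is given as a description. It was the ratio of Edn1 to Cdh5 in AngII + QDG vs. Control, at -2.65 ± 0.22 (SD, n = 5) and -3.24 ± 0.11 (SD, n = 5), a difference of 0.59 on the log2 scale. All 5 AngII + QDG mice, from -2.98 to -2.39, lay above all 5 Control mice, from -3.36 to -3.08 (exact permutation p = 0.00794, the smallest that 5 mice against 5 allow). Ratios to Cdh5 did not overlap for 0, 0 and 1 of 6 members, against 0.834%, 2.57% and 5.94% of all transcripts, and a count of 1 in 6 does not set the members apart. Cdh5, the divisor, was itself at 0.842 times its Control mean in AngII + QDG mice.

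AngII mice fell on both sides for this ratio of Edn1, with 2 mice at -2.47 and -2.60 and the other 3 between -3.61 and -3.12. Its difference from Control was 0.21 (exact permutation p = 0.373), and that of AngII + QDG from AngII mice 0.39 (exact permutation p = 0.151). For Vcam1 relative to Cdh5, AngII mice had -0.61 ± 0.54 (SD, n = 5) and Control mice -1.29 ± 0.63 (SD, n = 5), which did not pass (exact permutation p = 0.0873). Without AngII mouse 3986, which had the second highest Cdh5, the difference in this ratio went from 0.68 to 0.86 (exact permutation p = 0.0159), and without Control mouse 3994 to 0.44 (exact permutation p = 0.175). In AngII + QDG vs. Control it was 0.60 (exact permutation p = 0.135), with 0.77 without AngII + QDG mouse 3982 (exact permutation p = 0.0317) and 0.35 without Control mouse 3994 (exact permutation p = 0.27). Of the 10 omissions, 1 brought p below 0.05 in each of these comparisons. Kdr kept nearly the same ratio to Cdh5 in the 5 AngII + QDG mice, at -1.04 ± 0.019 (SD, n = 5), against -1.17 ± 0.13 in AngII and -1.11 ± 0.12 in Control mice. The difference of AngII + QDG from AngII mice in this ratio was 0.13 (exact permutation p = 0.111), with 0.17 without AngII mouse 3986 (exact permutation p = 0.0476) and 0.098 without AngII mouse 3988 (exact permutation p = 0.222).

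**Figure D3:**
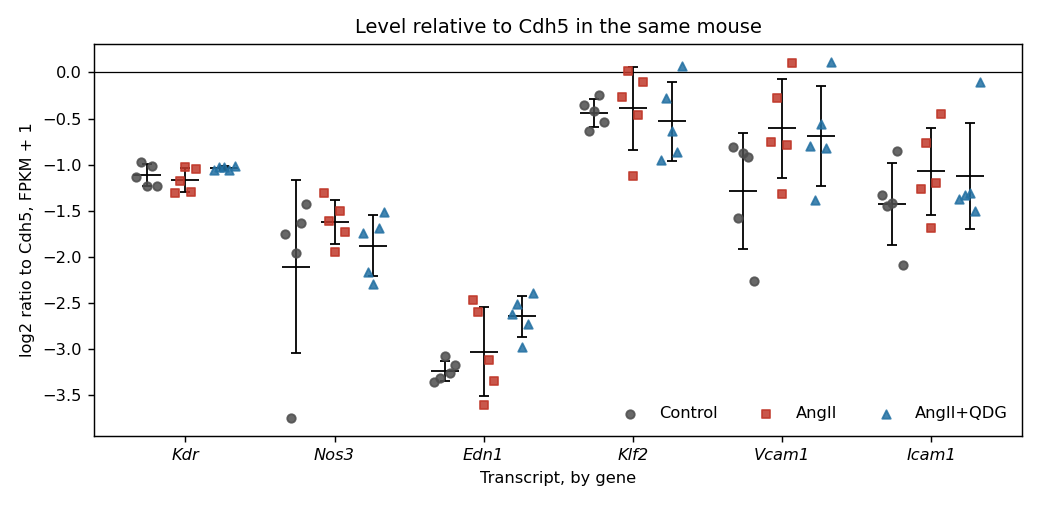
Level of 6 transcripts relative to Cdh5 in the same mouse, as the difference of log2(FPKM + 1), with 1 point per mouse, a bar at the group mean and whiskers of 1 SD. For Edn1 the AngII + QDG mice lie above the Control mice without overlap, as was so for 5.94% of all transcripts, and for the other genes the groups overlap.

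Some of the transcripts varied together from mouse to mouse. Over 21 pairs of members, Pearson's r of log2(FPKM + 1) passed Benjamini-Hochberg adjustment over the 21 pairs in 2, Cdh5 with Kdr and Vcam1 with Icam1. Spearman's rho passed in these and in Icam1 with Klf2. The share of other transcript pairs that would pass was not computed. Of 11938 other transcripts, 66.1% had a positive r with Vcam1 and 47.8% with Cdh5.

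Cdh5 and Kdr had r = 0.82 (permutation p = 0.00013, adjusted 0.00136) and rho = 0.81 (permutation p = 0.00045, adjusted 0.00472) over 15 mice. The relation held without the 2 mice farthest from the median of Cdh5 (r = 0.78), within the 10 Control and AngII mice, which share a transcript list (r = 0.83), and with group means taken out (r = 0.82). By r with Cdh5, Kdr ranked 12 among 11944 transcripts expressed in every mouse, and by r with Kdr, Cdh5 ranked 26.

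Vcam1 and Icam1 had r = 0.85 (permutation p = 9e-05, adjusted 0.00136) and rho = 0.83 (permutation p = 0.00016, adjusted 0.00336). Control mouse 3994 was lowest for both genes, and AngII mouse 4048 and AngII + QDG mouse 3985 held the highest values of both. Without mice 3994 and 4048, the farthest from the median of Vcam1, r was 0.72, and within the 10 Control and AngII mice it was 0.90. Icam1 ranked 138 among 11944 transcripts by r with Vcam1, and Vcam1 ranked 458 by r with Icam1, so that other transcripts followed either gene more closely.

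Icam1 and Klf2 had r = 0.65 (permutation p = 0.00938, adjusted 0.0657) and rho = 0.74 (permutation p = 0.0022, adjusted 0.0154). Leaving out mice 3994 and 3985 raised r to 0.76 (adjusted permutation p = 0.031), and within the 10 Control and AngII mice it was 0.60 and did not pass (adjusted permutation p = 0.449). With each mouse scaled by its 75th percentile, r fell to 0.49 (adjusted permutation p = 0.439). Klf2 ranked 1850 among 11944 transcripts by r with Icam1, and Icam1 ranked 358 by r with Klf2. Many other transcripts thus followed either gene more closely.

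No relation of Cdh5 with a gene other than Kdr passed. Vcam1 had r = -0.08 with Cdh5 (adjusted permutation p = 0.92, rho = -0.17), and Icam1 had r = -0.14 (adjusted permutation p = 0.92, rho = -0.03). Nos3 and Edn1 had r = 0.08 and -0.15 with Cdh5 (adjusted permutation p = 0.92 for both, rho = 0.33 and -0.31), and Klf2 had 0.18 (adjusted permutation p = 0.92, rho = 0.06). The values for the adhesion genes depended on the scaling. With each mouse scaled by its 75th percentile, r with Cdh5 was -0.38 for Vcam1 (adjusted permutation p = 0.691) and -0.43 for Icam1 (adjusted permutation p = 0.553), and 0.02, -0.09 and 0.04 for Nos3, Edn1 and Klf2. Without mice 3981 and 4086, the farthest from the median of Cdh5, r was -0.34 for Vcam1, -0.47 for Icam1, -0.06 for Nos3, -0.42 for Edn1 and -0.55 for Klf2. None of these passed adjustment, and with 15 mice moderate relations remain possible.

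**Figure D4:**
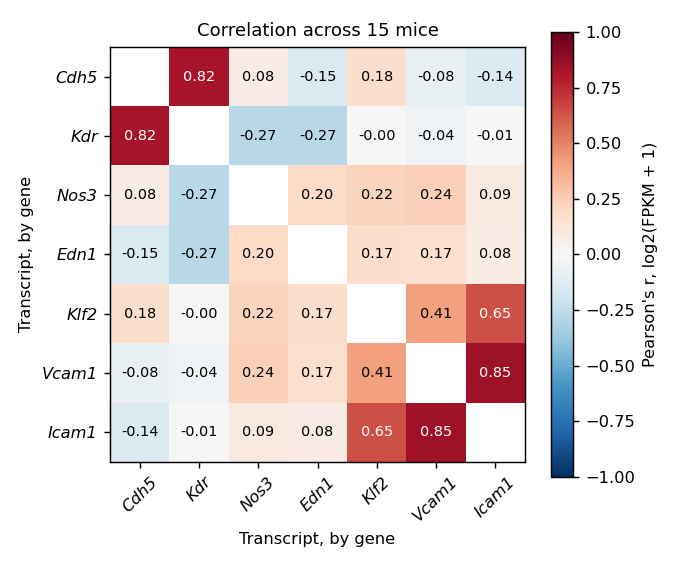
Pearson's r of log2(FPKM + 1) across the 15 mice for each pair of the 7 transcripts (rows and columns, colour from -1 to 1). The pairs Cdh5 with Kdr (0.82) and Vcam1 with Icam1 (0.85) stand out, and the remaining pairs lie between -0.27 and 0.65.

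**Figure D5:**
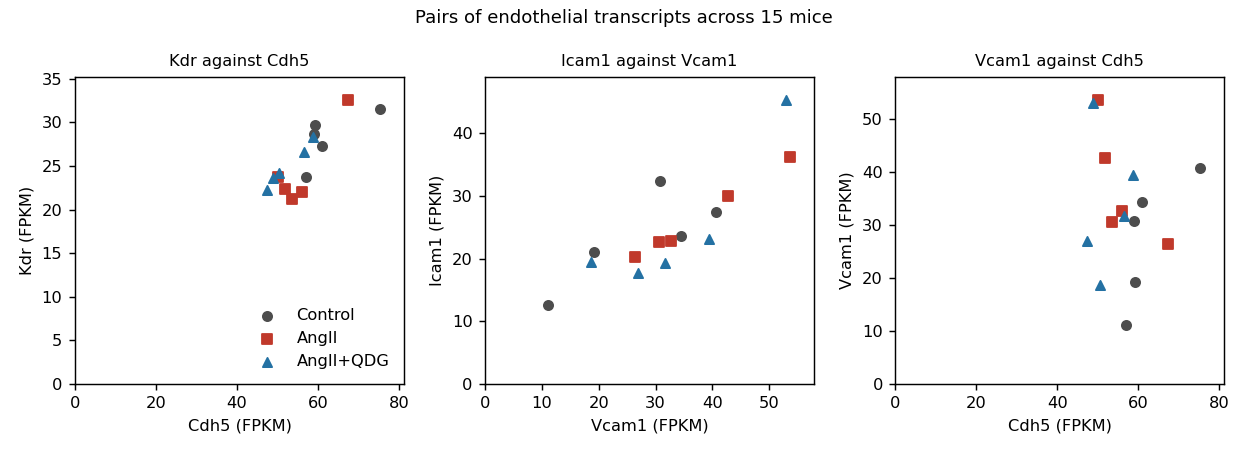
FPKM of Kdr against Cdh5, Icam1 against Vcam1, and Vcam1 against Cdh5, with 1 point per mouse and a symbol per group. The first and second panels show mice in line across all groups (r = 0.82 and 0.85), while r in the third is -0.08, and -0.38 with each mouse scaled by its 75th percentile.

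Identity genes also moved with the number of transcripts detected in a mouse, from 69972 to 80243 of the shared Ensembl transcripts above 0. Over 15 mice and 7 relations, r with that number was 0.75 for Cdh5 (permutation p = 0.00161, adjusted 0.0103, rho = 0.64) and 0.71 for Kdr (permutation p = 0.00294, adjusted 0.0103, rho = 0.63). Control mouse 4086 and AngII mouse 3986, the highest for Cdh5, also had the most transcripts above 0, and without them r fell to 0.45 and 0.42, so that both relations rest largely on these mice. Within the 10 Control and AngII mice r was 0.71 and 0.73. For the other 5 genes r lay between -0.18 and 0.18. With this number taken out, the correlation of Cdh5 with Kdr was 0.62 and that of Vcam1 with Icam1 0.85. Kdr was also lower in mice of higher summed FPKM (r = -0.62, permutation p = 0.0145, adjusted 0.101, rho = -0.66), which did not pass adjustment. The part of these measures in the differences of Cdh5 and Kdr between groups was not tested.

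Among the other transcripts expressed in every mouse, the most like Cdh5 over the 15 mice were ENSMUST00000029380 (r = 0.91, mean 19.6 FPKM) and ENSMUST00000099683 (r = 0.88, mean 28.7 FPKM). The most like Vcam1 were ENSMUST00000121337 (r = 0.96, mean 4.47 FPKM) and ENSMUST00000143178 (r = 0.95, mean 10.2 FPKM). Of 11938 transcripts, 29 had r above 0.9 with Vcam1 and 1 with Cdh5. They were taken as the highest of many and are given as a description without a test.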

How the data were processed

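Transcript levels from RNA-seq of 15 abdominal aortas were used, 5 mice per group, with groups taken from the labels. According to the methods, the authors used HISAT2 for alignment to GRCm38/mm10, StringTie for transcript assembly and levels, and DESeq for differential expression. The submitters' processing notes also name limma. The deposited values are FPKM per transcript, a unit recognised from the values, which the authors had scaled for transcript length and mapped fragments. A count test was therefore not used. The 7 transcripts and all lists were chosen with earlier results of these data known, and 1 of the 8 listed genes is not reported here.

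Each comparison was fitted on its 10 mice with limma 3.58.1 (trend) in R 4.3.3, on log2(FPKM + 1), over all transcripts that reached 1 FPKM in 5 or more mice. With AngII + QDG mice only shared Ensembl transcripts entered. The fit was checked on simulated data. Permutation tests were run in Python 3.11.15 with scipy 1.17.1, exact over 252 labellings for groups and with 100000 resamples for correlations. Gene positions are from RefSeq's gene table of GRCm38. All 7 members are named by rule, with the 2 transcripts most like Cdh5 and Vcam1. Further gene and marker lists, which need symbols for transcripts, were not run. The labels do not say whether mice shared a litter or a library batch. Figures were drawn with matplotlib 3.10.9.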

Additional observations from a re-analysis of the deposited data

Results flagged for a closer look

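Among the 5 values of each transcript in each group, 21 sets in all, a single mouse separated from the rest by over 0.71 of the range in 5 sets. For normally distributed values this rule flags about 1 in 20 sets, or 1.05 here. FPKM need not follow that distribution, and the share of all transcripts flagged was not computed. The count therefore does not set these genes apart. Control mouse 4086 had 75.2 FPKM of Cdh5, with 56.9 to 60.9 in the remaining Control mice. It also had 8.003 FPKM of Edn1, against 5.02 to 5.40. For Nos3, Control mouse 4000 had 3.47 FPKM and the remaining Control mice 17.3 to 20.5. For Kdr, AngII mouse 3986 had 32.6 FPKM and the remaining AngII mice 21.2 to 23.7. For Icam1, AngII + QDG mouse 3985 had 45.4 FPKM and the remaining mice 17.6 to 23.1.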

How the results depend on the processing

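Whatever the filter, pseudocount, scaling, joint fit of the 3 groups or mouse left out, 0 of the 7 transcripts were DETs and 0 had a limma adjusted p below 0.05. The lowest adjusted p was 0.206, for Edn1 in AngII + QDG vs. Control without Control mouse 4086. Of 315 member fold changes under alternatives, 300 kept their direction. For the changes given here, the cause was not tested. No paired analysis was possible because no mouse number or other label links mice across groups.

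Over all transcripts, the main fits used here gave 409, 744 and 774 DETs and 2, 365 and 384 adjusted limma calls. Requiring 1 FPKM in every mouse gave 91, 209 and 235 DETs and 1, 87 and 106 adjusted calls. Both sets of counts are in the order AngII vs. Control, AngII + QDG vs. AngII and AngII + QDG vs. Control. In AngII vs. Control, a pseudocount of 0.1 gave 652 DETs and 4 adjusted limma calls, no filter gave 1 adjusted call, and the joint fit gave 237 DETs and 0 adjusted calls, with 988 transcripts at an unadjusted limma p below 0.05. The joint fit also tested fewer transcripts, the 21054 shared ones that passed the filter against 27327, so the model and the transcript set changed together. Leaving out single mice gave 0 to 6, 215 to 281 and 200 to 288 adjusted calls in the 3 comparisons.

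Leaving out single mice moved the log2 fold change in AngII vs. Control from -0.092 to 0.17 for Edn1, from -0.10 to 0.47 for Nos3, from -0.18 to 0.0089 for Klf2 and from -0.0014 to 0.32 for Icam1. It moved that of Vcam1 in AngII + QDG vs. AngII from -0.34 to 0.021, and those of Nos3 and Icam1 in AngII + QDG vs. Control from -0.44 to 0.13 and from -0.17 to 0.19. With a pseudocount of 0.1 the value of Nos3 in AngII + QDG vs. Control was 0.011. Besides the cases in the report, an interval that included 0 with all mice did not with a mouse left out in 2 of 10 fits for Cdh5 and 1 of 10 for Klf2 in AngII + QDG vs. Control, and in 1 of 10 for Edn1 in AngII + QDG vs. AngII.

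The relations of Cdh5 with Kdr and of Vcam1 with Icam1 passed adjustment in the 10 Control and AngII mice, after scaling, and without the 2 farthest mice. Icam1 with Klf2 passed by Pearson's r without the 2 farthest mice, at 0.76. Weak correlations turned. Without the 2 farthest mice r was -0.056 for Nos3 and -0.55 for Klf2 with Cdh5, -0.39 for Vcam1 and -0.16 for Icam1 with Nos3, and 0.013 for Icam1 and 0.017 for Klf2 with Kdr. In Control and AngII mice r was 0.18 for Edn1 and -0.026 for Klf2 with Cdh5 and 0.0096 for Icam1 with Kdr. Scaled by the 75th percentile, r was -0.077 for Icam1 with Nos3, and -0.027 for Vcam1 and -0.14 for Icam1 with Edn1. The alternatives of the ratios to Cdh5, and those of pairs without Cdh5, were chosen after seeing the data. Leaving out single mice gave 0 to 1, 0 to 1 and 1 to 2 ratios with an exact p below 0.05. The depth is unknown, and the spread between 5 mice sets the precision.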
